A study of Mus musculus with 10 samples.

Results

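The Schlafen genes form a family of 7 members here, Slfn1, Slfn2, Slfn3, Slfn4, Slfn5, Slfn8 and Slfn9, taken by name from a deposited table of 46966 mouse genes. The family was picked after Slfn5 and Slfn8 had been seen to be low in KOKI spleen cultures, so the members' values in KOKI against WT spleen cultures are given as a description, with no test, while other genes of that contrast are given with theirs. Total RNA of 10 preparations was sequenced. Splenic B cells, left after removal of CD43-positive cells, grew for 2 days (10% serum) with lipopolysaccharide (LPS) at 5 µg/ml, which drives B cells to divide and to turn into antibody-secreting plasmablasts. The WT (BLACK-6) group had LPS only (n = 2), a second WT group also had SAHA, a histone deacetylase inhibitor, at 200 ng/ml (n = 2), and the KOKI group (n = 2) is described next. The titles and design text of the KOKI cultures name LPS alone, but another label adds SAHA to it. They are called KOKI LPS here and were set beside both WT groups. Femoral B cells, as labelled, were taken without culture from pools of 3 mice. They comprised 2 control pools from mice deficient for RAG2, which antigen receptor rearrangement needs, and for gamma c, a receptor chain shared by several interleukins. By the titles there was 1 KOKI pool on that same doubly deficient background and 1 KOKI pool deficient for RAG2 alone, so the KOKI pools (n = 2) share RAG2 deficiency with the controls but not all of them share gamma c deficiency. The design text instead speaks of 2 pools for the 3 femoral genotypes, and the titles were followed. The labels do not spell out KOKI, and no sex or age is given.

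Schlafen proteins are known from mouse and human as regulators of cell growth, lymphocyte quiescence and antiviral defence, and several of their genes are switched on by type I interferon. They share a core domain that in several members binds or cuts transfer RNA. The short members, Slfn1 and Slfn2, consist of little more than this core, Slfn3 and Slfn4 are of intermediate size, and the long members, Slfn5, Slfn8 and Slfn9, add a part that resembles RNA and DNA helicases.

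Libraries held 18614742 to 29314068 counts. Ms4a1 (CD20), a mature B cell marker, stood at 858 to 1025 CPM in the splenic libraries and at 0.0946 CPM or less in every femoral one, where the 10 neutrophil markers summed to 13400 to 20700 CPM and the 11 macrophage and monocyte markers to 6030 to 7760 CPM. The femoral preparations are therefore called by their label without reading them as pure B cells. Rag2 and Il2rg transcripts were present in all femoral pools (6.93 to 9.32 and 8.12 to 12.3 CPM), and counts over a whole gene do not check a deletion. Xist was at 457 CPM in KOKI LPS replicate 2 and at most 0.456 CPM elsewhere, and counts fell on 451 of 1292 olfactory receptor genes in WT LPS+SAHA replicate 2 against 15 to 126 in the other libraries. In such bulk samples fewer cells of a type and less RNA per cell cannot be told apart.

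All 7 members lie within 263.8 kb of chromosome 11 (mm10, 82951349 to 83215154), in the order Slfn5, Slfn9, Slfn8, Slfn2, Slfn1, Slfn4, Slfn3. Slfn8 and Slfn9 lie on the minus strand and the others on the plus strand. Their transcripts resemble each other, and how the authors counted reads that match more than 1 place is not given in the sources used here. In the GENCODE M21 transcripts, 9.30% of the 50-base stretches of Slfn8 occur unchanged in Slfn9 and 10.1% in the pseudogene Slfn10-ps, and 6.28% of those of Slfn4 occur in Slfn3. Slfn1 shares 0.606% of its stretches with other genes, Slfn2 4.27%, Slfn5 11.1%, Slfn4 11.3%, Slfn9 11.9%, Slfn8 14.6% and Slfn3 16.0%. Levels of the members are uncertain for that reason. These shares do not bound the error, which also depends on the level of the partner gene. Slfn4, rare in the spleen cultures, shares 1.72% of its stretches with the abundant Slfn2. Of the stretches of Slfn5, 7.38% occur in Slfn5os, which overlaps Slfn5 on the other strand and had at most 2 counts in any library.

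Per length, Slfn2 stood above every other member in each group. In CPM (counts per 1 000 000) per kilobase of exon, its level was 119 in WT LPS cultures, 108 with SAHA, 91.3 in KOKI LPS cultures, 94.0 in femoral controls and 74.5 in femoral KOKI pools. It made up 76.7% of the summed per-length level of the family in WT LPS, 75.9% with SAHA and 87.5% in KOKI LPS, and 44.9% and 50.02% in the femoral groups. In WT LPS cultures the per-length order after Slfn2 was Slfn8 (16.3), Slfn5 (11.5), Slfn3 (4.34), Slfn9 (2.37), Slfn1 (1.55) and Slfn4 (0.0491), with no overlap between neighbours in the order, and the order was the same with SAHA. KOKI LPS cultures had another order, with Slfn9 (5.72) next after Slfn2, then Slfn3 (3.46), Slfn8 (2.71), Slfn5 (1.13), Slfn1 (0.0662) and Slfn4 (0 counts), where Slfn3 overlapped Slfn8 and Slfn1 overlapped Slfn4. Femoral controls had Slfn4 (30.7) and Slfn1 (25.2), which overlapped, ahead of Slfn5 (19.7), Slfn8 (16.2), Slfn3 (12.5) and Slfn9 (10.3). Of these, Slfn5 overlapped Slfn8 and Slfn8 overlapped Slfn3.

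**Figure D1:**
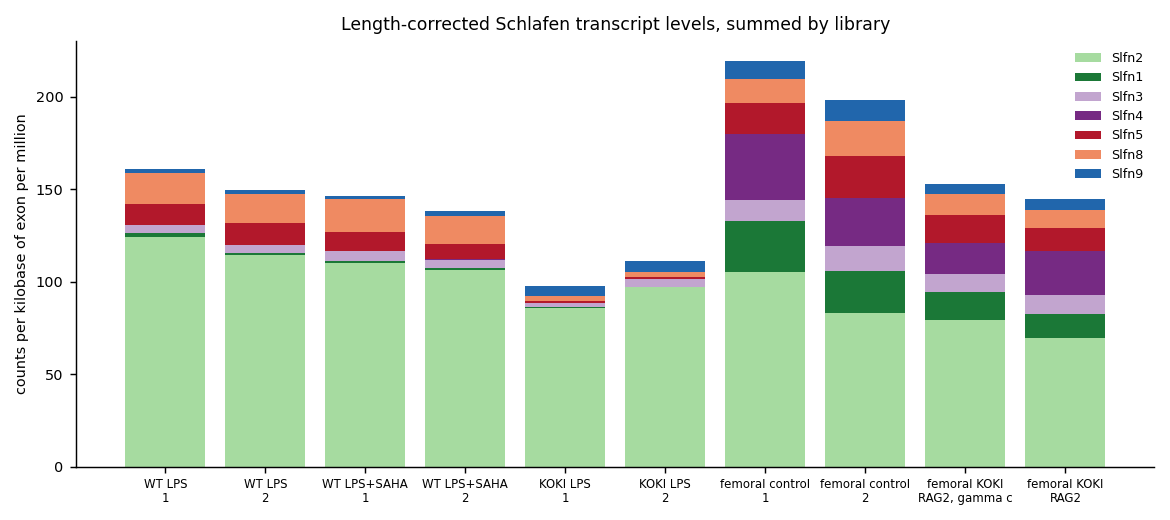
Stacked bars give, for each of the 10 libraries, the level of each Schlafen member in CPM per kilobase of exon (TMM library sizes). Slfn2 is the largest block in every bar, Slfn1 and Slfn4 are thick in the femoral pools and thin in the spleen cultures, and the summed level is lowest in the KOKI LPS cultures (97.7 and 111).

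Of the long members, Slfn5 and Slfn8 were lower and Slfn9 was higher in KOKI than in WT spleen cultures. Slfn5, an interferon-induced gene whose protein acts in the nucleus, stood at 49.6 and 52.4 CPM in WT LPS, 44.1 and 36.1 CPM in WT LPS+SAHA, and 4.28 and 5.73 CPM in KOKI LPS. Both KOKI libraries lay far under all 4 WT libraries. The log2 fold change of KOKI over WT LPS was −3.32 (SE 0.20), or 10.0-fold lower, and over WT LPS+SAHA it was −3.03 (SE 0.19). These comparisons share the KOKI libraries.

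Slfn8, another long member, stood at 69.3 and 64.1 CPM in WT LPS, 73.2 and 63.6 CPM with SAHA, and 11.9 and 10.2 CPM in KOKI LPS. Again the KOKI libraries did not overlap the WT ones, at log2 −2.55 (SE 0.15, 5.86-fold lower) against WT LPS and −2.64 (SE 0.15) against WT LPS+SAHA. Slfn9, its neighbour and close relative in sequence, went the other way. It stood at 10.2 and 12.2 CPM in WT LPS, 9.03 and 11.2 CPM with SAHA, and 25.5 and 28.6 CPM in KOKI LPS. Both KOKI libraries lay above all WT libraries, at log2 1.31 (SE 0.19, 2.47-fold higher) against WT LPS and 1.4 (SE 0.19) against WT LPS+SAHA.

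Within a library, the ratio of Slfn8 to Slfn9 counts does not depend on library size. It was 6.79 and 5.26 in WT LPS, 8.11 and 5.69 in WT LPS+SAHA, and 0.468 and 0.357 in KOKI LPS. Slfn8 thus had several times the counts of Slfn9 in WT cultures and fewer than Slfn9 in KOKI cultures. In the femoral pools the ratio was 1.18 and 1.52 in controls, 1.74 in the KOKI pool deficient for RAG2 and gamma c and 1.5 in the KOKI pool deficient for RAG2 alone. The femoral KOKI ratios lay within or just above the range of their controls and far above those of the KOKI cultures. The ratio was formed after the values had been seen and has no test.

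**Figure D2:**
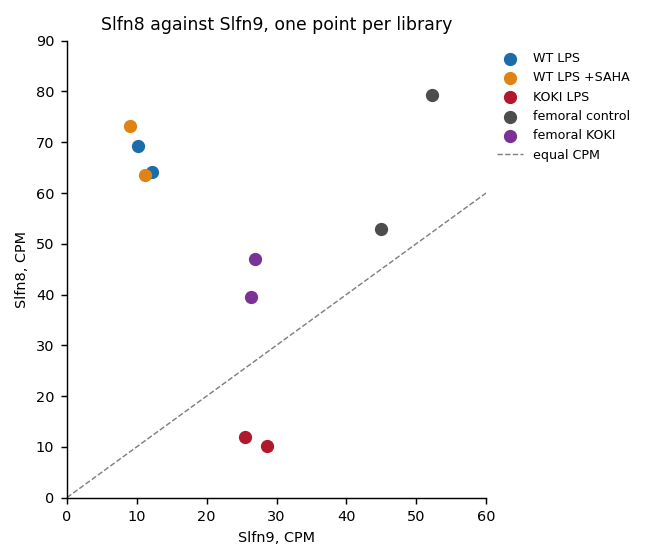
Each point is 1 library, with Slfn9 on the x axis and Slfn8 on the y axis, both in CPM, and the dashed line marks equal CPM. The 4 WT cultures sit at high Slfn8 and low Slfn9, the 2 KOKI cultures are the only points under the line, and the 4 femoral pools sit above it at higher Slfn9.

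The stretches just before the start sites of these long members are shown because Slfn5, Slfn8 and Slfn9 differed in opposite directions in the KOKI cultures. RefSeq start sites on GRCm38.p6 were used, and 6 of the 7 members have 1 listed start and Slfn8 has 2. The letters GAAA, any 2 bases and GAAA again, the core of the element bound by interferon-activated factors, were searched on both strands of the 250 bases before each start. They occur in 2.98% of 32851 such windows of all genes, and in those of Slfn5, Slfn8 and Slfn9. They are not found in these windows of Slfn1, Slfn2, Slfn3 or Slfn4. The letters TTCNNNGAA, of the gamma-activated element, are in 7.02% of all windows and in none of the 7 members' windows. Both motifs can overlap other motifs, and a match describes letters and not binding. The windows of Slfn8 (chr11:83020811-83021060, minus strand) and Slfn9 (chr11:82991831-82992080, minus strand) follow 5′ to 3′ with the match in capitals, and for Slfn5 the 30 bases around its match (chr11:82951937-82951966, plus strand), whose window overlaps an annotated Slfn5 exon by 117 bases.
Slfn8: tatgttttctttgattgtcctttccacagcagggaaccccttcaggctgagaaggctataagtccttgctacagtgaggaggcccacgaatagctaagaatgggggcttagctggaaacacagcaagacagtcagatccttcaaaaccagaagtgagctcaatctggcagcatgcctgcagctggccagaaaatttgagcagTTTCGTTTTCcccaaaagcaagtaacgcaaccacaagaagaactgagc
Slfn9: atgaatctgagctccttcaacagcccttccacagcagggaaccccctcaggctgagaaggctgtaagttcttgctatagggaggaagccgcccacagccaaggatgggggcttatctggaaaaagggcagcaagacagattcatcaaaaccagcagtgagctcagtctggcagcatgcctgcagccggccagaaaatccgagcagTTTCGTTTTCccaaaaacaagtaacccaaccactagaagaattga
Slfn5: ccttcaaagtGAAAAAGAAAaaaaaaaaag
The match lies 48 to 39 bases before the upstream of the Slfn8 starts, 45 to 36 bases before the Slfn9 start and 155 to 146 bases before the RefSeq Slfn5 start. In the deposited coordinates and in GENCODE M21, Slfn5 starts further upstream, at 82951349. By that start the Slfn5 match lies within the gene and not before it. In a global alignment the Slfn8 and Slfn9 windows were identical in 206 of 258 columns (79.8%), and the 10 capital letters are the same in both. The pair thus carried the same match beside opposite differences between KOKI and WT cultures. Slfn5 and Slfn8 windows were identical in 44.7% of columns, which is near the 46.9% between Slfn8 and Slfn2.

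Among the short members, Slfn2 was abundant in every library and Slfn1 was rare in the spleen cultures. Slfn2, which in mouse T cells guards quiescence and protects transfer RNA from cleavage, stood at 207 and 190 CPM in WT LPS, 183 and 176 CPM with SAHA, and 143 and 161 CPM in KOKI LPS. The 3 groups did not overlap, but the distances were small beside those of Slfn5 (log2 −0.35, SE 0.14, for KOKI over WT LPS). Slfn1, the founding member, which slows the growth of mouse cells when overexpressed, had 88 and 54 counts in WT LPS, 43 and 56 with SAHA, and 6 and 0 in KOKI LPS. By pooled counts WT LPS was 19.0-fold above KOKI LPS, a ratio that is open to counting error and is given with no test. Slfn1 was at 0 in KOKI LPS replicate 2, so the fitted log2 value of −4.30 (SE 0.86) rests on 6 counts in KOKI LPS replicate 1 and on the prior count, and without that replicate it was −8.93.

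Slfn3 and Slfn4, the members of intermediate size, gave little in the spleen cultures. Slfn3 stood at 7.98 and 7.78 CPM in WT LPS, 9.25 and 8.13 CPM with SAHA, and 4.40 and 8.17 CPM in KOKI LPS. The KOKI libraries lay on both sides of the WT ones (log2 −0.30, SE 0.31), and without KOKI LPS replicate 1 the sign turned (0.10). Slfn4, a gene of mouse myeloid cells that interferon and Toll-like receptor ligands induce, had 3 and 7 counts in WT LPS, 20 and 8 with SAHA and 0 in both KOKI cultures. A count of 0 over the KOKI group allows up to 0.0671 CPM, beside 0.179 CPM from the 10 pooled counts of WT LPS. The counting error of those 10 counts is not included, so no fold is given. It did not pass the filter on low counts in the splenic libraries and was not tested there.

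Counting all 7, both KOKI libraries lay below both WT LPS libraries for Slfn1, Slfn2, Slfn4, Slfn5 and Slfn8, which holds for 26.9% of the 15342 genes tested, and above both for Slfn9, which holds for 20.6%. Against WT LPS+SAHA the same members lay below and above, beside 32.2% and 33.7% of genes. Nothing is read from these counts, since the family was picked on this contrast. Of all genes tested 4.08% were called between KOKI LPS and WT LPS (edgeR quasi-likelihood test, Benjamini-Hochberg adjusted p under 0.05), 2.25% as higher and 1.83% as lower.

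**Figure D3:**
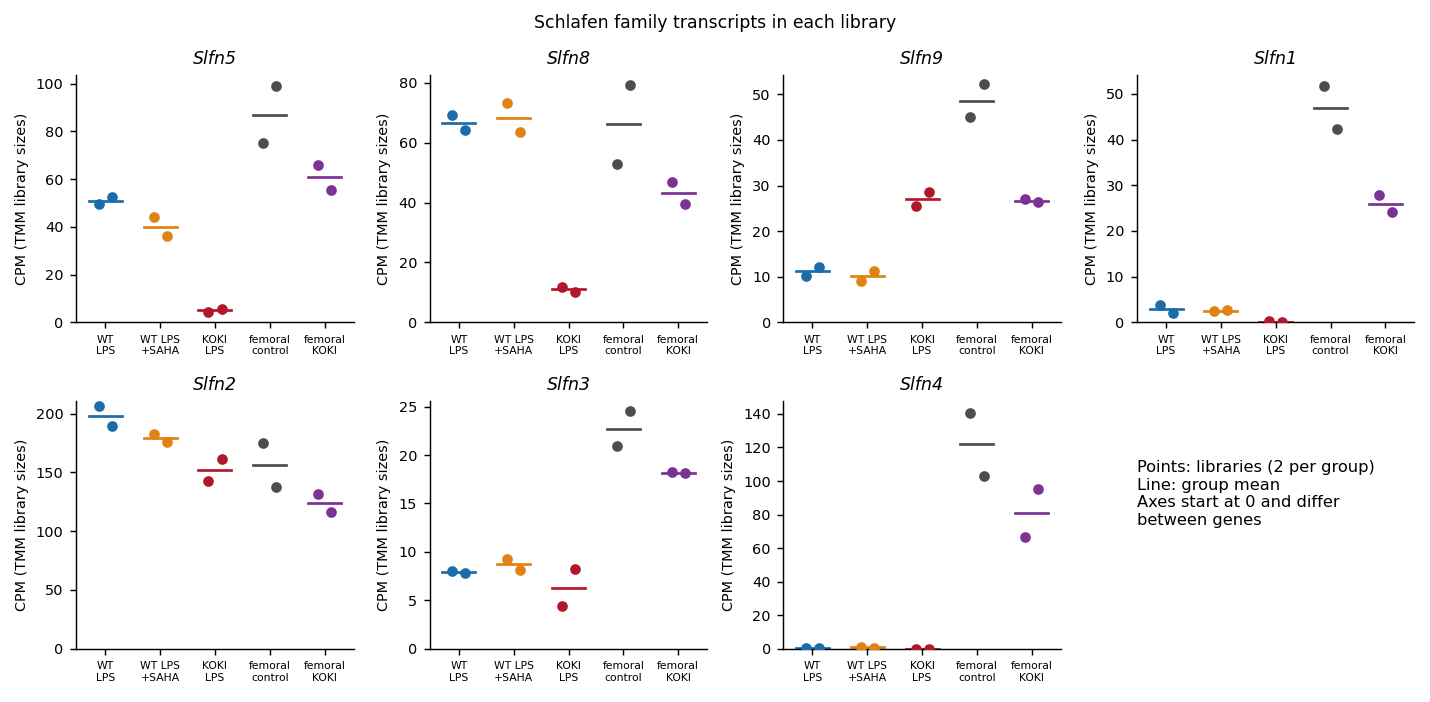
Each panel shows 1 Schlafen member, with points for the 10 libraries in CPM on axes that start at 0 and differ between genes, and a line for the mean of each group of 2. Slfn5 and Slfn8 are low in both KOKI LPS libraries, Slfn9 is higher there than in WT cultures, and Slfn1 and Slfn4 are high only in the femoral pools.

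Other interferon-stimulated genes were lower in KOKI cultures as well. In a list of 40 such genes edgeR called 19 as fallen and 0 as risen, beside 1.83% and 2.25% of all genes. Of the 40, 28 had an unadjusted p under 0.05 by edgeR, beside 17.5% of all genes. Their median log2 fold change was −0.91 beside −0.02 over all genes. The largest falls were those of Oasl2, a relative of the oligoadenylate synthetases, at 0 counts in KOKI LPS and a mean of 11.8 CPM in WT LPS, and of Ifit3b (8.93 to 0.0900 CPM) and Rsad2 (18.8 to 0.930 CPM), both antiviral effectors. Irf9, which encodes a DNA-binding part of an interferon-activated complex, fell as well (log2 −0.97, edgeR adjusted p = 0.00671) and was chosen after its value was seen. It belongs to a list of interferon signalling genes, of which 17 were tested. Of these 6 had a positive and 11 a negative log2 value, with a median of −0.17. Any link to the Schlafen values was not tested. Of 20 genes of lymphocyte quiescence 1 fell, S1pr1, a receptor that lets lymphocytes leave lymphoid organs (log2 −1.0, edgeR adjusted p = 0.00649). The lists were drawn up with earlier results known and are no independent support.

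Sums over marker lists of other cell types differed alongside, and they are not read as numbers of such cells. The 11 macrophage and monocyte markers summed to 129 and 130 CPM in WT LPS and 90.2 to 92.7 CPM in KOKI LPS, and edgeR called 1 of the 8 tested as fallen, Lyz2 (280 and 291 counts in WT LPS, 84 and 88 in KOKI LPS). C1qa, of the same list, had 2 counts or fewer in all 4 libraries. Mpeg1 alone stood at 102 and 99.2 CPM in WT LPS and at 75.1 and 77.4 CPM in KOKI LPS. The 12 T cell markers summed to 45.2 to 47.2 against 39.5 to 39.7 CPM, with Cd3e at 0.137 CPM or less in all 4 libraries. Cd2 alone stood at 27.8 and 30.5 CPM in WT LPS and at 28.3 and 30.6 CPM in KOKI LPS. Of 6 plasmablast markers 5 rose (edgeR), and their sum went from 535 to 568 CPM in WT LPS to 1170 to 1310 CPM in KOKI LPS, while the 9 mature B cell markers overlapped at 2670 to 2840 against 2520 to 2730 CPM. Their part in the Schlafen values was not tested.

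Within 500 kb of the outermost members the table holds 51 other genes, of which 24 were tested. In KOKI LPS against WT LPS edgeR called 2 of the 24, beside the 4.08% of all genes given above. Of these 1 rose, AA465934 (log2 1.74, edgeR adjusted p = 0.00195), and 1 fell, the chemokine Ccl5 (log2 −2.43, edgeR adjusted p = 0.0386), and the median log2 fold change of the 24 was −0.01. The pseudogene Slfn10-ps, which lies between Slfn8 and Slfn2, stood at 9.22 and 7.44 CPM in WT LPS and 7.85 and 9.65 CPM in KOKI LPS. Its groups overlapped, in contrast to those of Slfn8 and Slfn9, with which it shares sequence. Slfn14, a further long relative, had at most 11 counts in any splenic library.

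**Figure D4:**
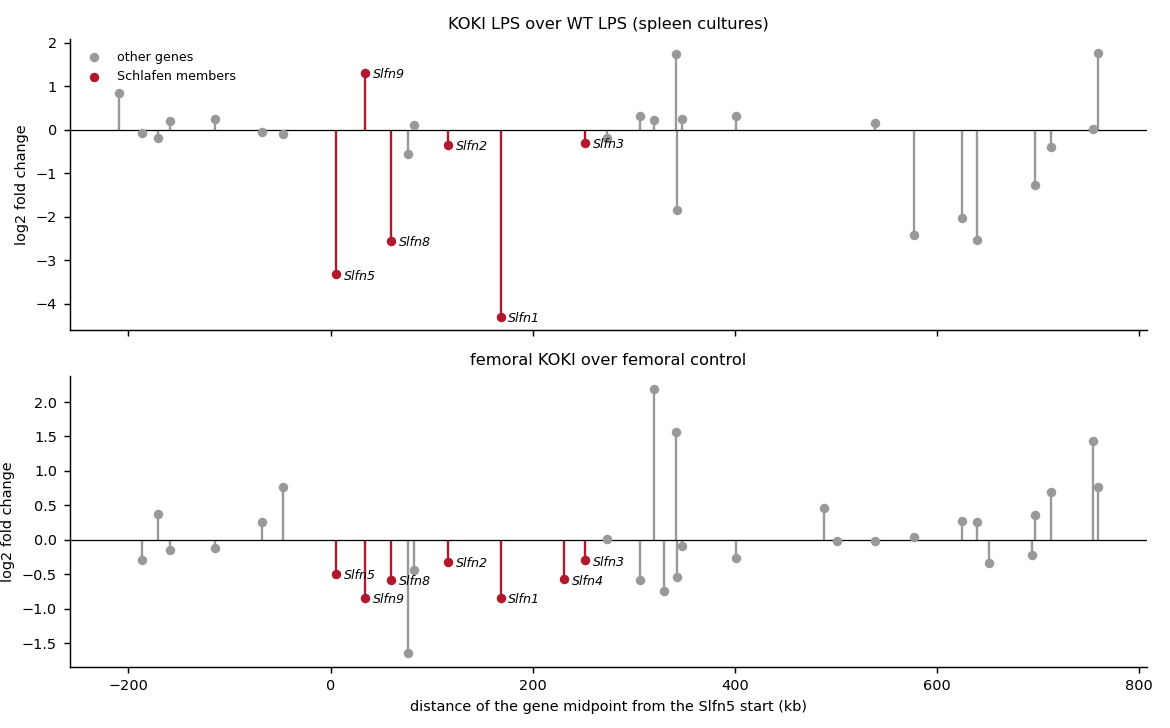
Lines rise or fall from 0 to the log2 fold change of each tested gene, placed by the distance of its midpoint from the Slfn5 start in kb, for KOKI LPS over WT LPS (top) and femoral KOKI over femoral control (bottom), with Schlafen members in red. In the top panel Slfn5, Slfn8 and Slfn1 point down and Slfn9 up within the same stretch, and in the bottom panel all 7 members point down by less than 1.

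SAHA moved no Schlafen member past the threshold in WT LPS cultures. Of the 6 members that passed the filter, 0 were called by edgeR and 0 by the DESeq2 Wald test, with 0 at an unadjusted p under 0.05, while 4.64% of all 15342 genes were called, 0.952% as higher and 3.69% as lower. This comparison shares its WT LPS libraries with the contrast the family was picked on. Slfn5 had the largest difference (log2 −0.29, SE 0.17, edgeR adjusted p = 0.327), with both SAHA libraries below both WT LPS libraries, as for 31.8% of genes. Slfn2 (log2 −0.09, SE 0.14) did not overlap either, and Slfn3 (0.19, SE 0.31) lay slightly higher in both SAHA libraries, as did 24.7% of genes; Slfn4, not tested, also had more CPM in both. Slfn8 (0.09, SE 0.13), Slfn9 (−0.09, SE 0.19) and Slfn1 (−0.14, SE 0.66) overlapped. Among the other interferon-stimulated genes 1 of 40 fell, Eif2ak2, which encodes the antiviral kinase PKR (104 to 63.3 CPM, log2 −0.67, SE 0.12, edgeR adjusted p = 0.0303), and DESeq2 called 2. As many as 37 of the 40 had a negative log2 value, with a median of −0.33 beside 0.02 over all genes. Of the 24 tested cluster neighbours edgeR called 0 and DESeq2 2, with 5 at an unadjusted p under 0.05. Of the 20 quiescence genes edgeR called 0 and DESeq2 2, with 8 at an unadjusted p under 0.05. Over all genes DESeq2 called 11.2%, and 25.3% had an unadjusted p under 0.05 by edgeR. Btg1, an inhibitor of cell division with the highest mean level of the quiescence genes, was at log2 0.63 (edgeR adjusted p = 0.0639).

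**Figure D5:**
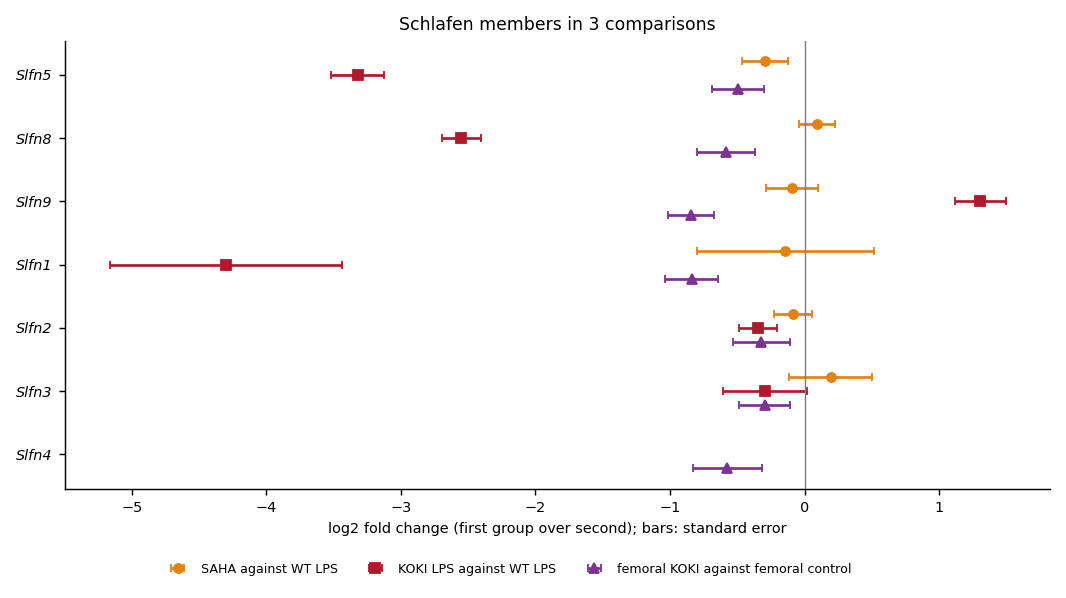
Points give the log2 fold change of each Schlafen member in 3 comparisons, with bars of 1 standard error, and Slfn4 has no point in the splenic comparisons because it did not pass the filter there. The SAHA points lie within 0.3 of 0, the femoral KOKI points lie between −0.84 and −0.30, and the KOKI LPS points spread from −4.30 (Slfn1) to 1.31 (Slfn9).

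In the femoral pools, which played no part in picking the family, all 7 members were lower in both KOKI pools than in both control pools, by modest amounts. Such a separation, with KOKI lower, holds for 25.8% of the 16624 genes tested. Values for the long members, in the order control 1, control 2, KOKI deficient for RAG2 and gamma c, and KOKI deficient for RAG2 alone, were as follows. Slfn9 stood at 45, 52.2, 26.9 and 26.4 CPM (log2 −0.84, SE 0.17, edgeR adjusted p = 0.115). Slfn8 stood at 52.9, 79.4, 47.0 and 39.6 CPM (log2 −0.58, SE 0.22, edgeR adjusted p = 0.251). Slfn5 stood at 75.1, 99.1, 65.9 and 55.5 CPM (log2 −0.50, SE 0.19, edgeR adjusted p = 0.271). For Slfn9 the KOKI pools were close to each other and well apart from the controls, while for Slfn8 and Slfn5 the controls differed from each other by more than the lower control differed from the higher KOKI pool.

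Among the short and intermediate members, in the same order of pools, Slfn1 was at 51.7, 42.4, 27.8 and 24.1 CPM (log2 −0.84, SE 0.20, edgeR adjusted p = 0.137). Slfn2 was at 175, 138, 132 and 116 CPM (log2 −0.32, SE 0.21, edgeR adjusted p = 0.497). Slfn4, the myeloid member, was at 141, 103, 66.5 and 95.1 CPM (log2 −0.58, SE 0.26, edgeR adjusted p = 0.316), and the KOKI pool deficient for both proteins was the lowest. Slfn3 was at 20.9, 24.6, 18.2 and 18.2 CPM (log2 −0.30, SE 0.19, edgeR adjusted p = 0.482). Slfn14, a relative that is not a member and is known from disorders of platelets and red cells, was lower too (31.5, 23.5, 15.7 and 16.7 CPM; log2 −0.75, edgeR adjusted p = 0.189).

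By edgeR 0 of the 7 members were called, beside 0.0301% of all genes, and 4 members (Slfn1, Slfn5, Slfn8 and Slfn9) had an unadjusted p under 0.05, beside 16.2% of all genes. The DESeq2 Wald test called Slfn9 (adjusted p = 0.00908) and Slfn1 (adjusted p = 0.0249), beside 4.14% of all genes, and edgeR without the low-count filter called the same pair, beside 2.65%. Without femoral control replicate 1 edgeR called Slfn1, Slfn5, Slfn8 and Slfn9, and without femoral control replicate 2 it called Slfn1, Slfn2, Slfn4 and Slfn9, each in a fit with 1 residual degree of freedom in which 12.2% and 19.9% of all genes were called. With the KOKI pool on the matched background alone, in a fit of all 10 libraries, log2 values of the 7 members ran from −0.86 (Slfn4) to −0.24 (Slfn2). That group holds 1 library, so only effect sizes are given here. Neutrophil marker sums (13600 to 18300 CPM in controls, 13400 to 20700 in KOKI), erythroid sums (10500 to 10800 against 9250 to 12400 CPM) and macrophage and monocyte sums (6170 to 7240 against 6030 to 7760 CPM) overlapped between the groups. Other marker sums did not overlap. Those of plasmacytoid dendritic cells (190 to 250 CPM in controls, 270 to 307 in KOKI) were higher in the KOKI pools. So were those of early B progenitors (62.9 to 66.5 against 77.6 to 82.6 CPM) and T cells (18.1 to 18.3 against 19.4 to 19.7 CPM). That of plasmablasts (173 to 177 against 144 to 155 CPM) was lower. Of the plasmacytoid markers only Bst2, also on the interferon-stimulated list, separated (42.4 and 82.9 against 112 and 129 CPM). Siglech overlapped (116 and 130 against 124 and 137 CPM). Of the plasmablast markers only Ell2 separated (50.8 and 36.0 against 24.8 and 25.3 CPM). Cd3e, a T cell marker, had 0 counts in every femoral pool. Within overlapping lists, the macrophage gene C1qa (31.6 and 30.9 against 13.5 and 17.8 CPM) and the erythroid gene Slc4a1 (731 and 553 against 312 and 324 CPM) were lower in both KOKI pools. So were the neutrophil genes Ltf, Ngp and Ly6g (Ly6g at 33.1 and 18.5 against 15.2 and 17.3 CPM). S100a8 (3400.99 and 4493.27 against 5130.75 and 9166.91 CPM) and Prtn3 (307 and 237 against 349 and 341 CPM) were higher in both. The remaining neutrophil genes of the list overlapped. The part of these cell types and genes in the lower Schlafen values was not tested. Of the 40 other interferon-stimulated genes edgeR called 0 and DESeq2 9, with 18 at an unadjusted p under 0.05, and 32 had a negative log2 value (median −0.46 beside −0.02 over all genes). Of 28 tested cluster neighbours edgeR called 0 and DESeq2 3, with 7 at an unadjusted p under 0.05, 14 positive and 14 negative and a median near 0 (−0.0049).

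Between the preparations, femoral controls and WT LPS spleen cultures differ in organ, genotype, culture and LPS at once, and these causes cannot be told apart. Slfn4 was at 141 and 103 CPM in the femoral controls against 0.128 and 0.262 CPM, the latter from 10 counts. It passed the low-count filter only through the femoral libraries, so this is a description, with no test. Of the other 6 members 4 were higher in the femoral controls and 0 lower (edgeR), beside 21.3% and 21.1% of 20204 genes tested. Slfn1 was at 51.7 and 42.4 against 3.76 and 2.02 CPM (log2 4.02, SE 0.38, edgeR adjusted p = 6.11e-06). For both genes the femoral libraries lay far above all splenic ones. Marker sums of neutrophils (0.719 to 3.13 CPM in WT LPS) and of macrophages and monocytes (129 to 130 CPM) were higher there too. So were those of erythroid cells (6.81 to 12.7 CPM in WT LPS) and plasmacytoid dendritic cells (37 to 48.9 CPM). Among the femoral pools, the KOKI pool deficient for RAG2 alone had the highest neutrophil sum (20700 CPM) and the lowest Slfn1 (24.1 CPM). The largest parts of that sum were S100a8 (9166.91 CPM) and S100a9 (7141.63 CPM), both highest in that pool. Elane, Mpo, Camp, Ltf, Ngp, Lcn2 and Ly6g were instead highest in femoral control replicate 1, which had the highest Slfn1 (51.7 CPM). Ly6g, for example, was at 33.1 CPM there against 17.3 CPM in the KOKI pool deficient for RAG2 alone. Prtn3 was highest in the other KOKI pool. The part of any of these cell types was not tested. Slfn9 (log2 2.10, SE 0.20), Slfn3 (1.51, SE 0.28) and Slfn5 (0.76, SE 0.20) also rose, with adjusted p-values of 5.68e-06, 0.00113 and 0.00878 by edgeR. Slfn8 (log2 −0.03, SE 0.20, edgeR adjusted p = 0.926) and Slfn2 (−0.35, SE 0.19, edgeR adjusted p = 0.156) did not pass. Slfn2 was lower in both femoral controls, as were 34.8% of genes, and fell without femoral control replicate 1 (−0.55, edgeR adjusted p = 0.0405). With WT LPS+SAHA cultures in place of WT LPS, which the choice of the family did not use, the same 4 members were called as higher. Scaling with RLE factors moved the median of all genes from 0.02 to 0.17 and Slfn8 to 0.12. Of the 40 other interferon-stimulated genes 7 were higher in the femoral controls and 19 lower.

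The genes whose profiles over the 10 libraries were most like those of Slfn5 and Slfn8 were taken by the root mean square distance between log2 CPM profiles, each centred on its own mean, among 20203 other genes. The libraries share the split into spleen and femur, so likeness is a description. For Slfn8 they were Rtp4 (distance 0.31 on the log2 scale), Nlrc4 (0.33), Mx1 (0.34), Usp18 (0.35) and C130046K22Rik (0.37). Rtp4, Mx1 and Usp18 are on the list of interferon-stimulated genes, and Nlrc4 encodes an inflammasome sensor. Mx1 went from 32.2 CPM in WT LPS to 6.89 CPM in KOKI LPS and from 45.3 CPM in femoral controls to 34.0 CPM in femoral KOKI pools. For Slfn5 they were Pmp22 (0.45), Gm37399 (0.48), Srxn1 (0.50), Trim36 (0.52) and Gpr137b-ps (0.53), of which none is on the interferon lists. In WT LPS, KOKI LPS and both femoral groups their means were under 10 CPM, against 51.0 CPM for Slfn5 in WT LPS.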

How the data were processed

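Per the labels' protocols, 500 ng of RNA went into a stranded total RNA kit. The authors deposited raw counts for each gene. STAR 2.4.0a, featureCounts (Subread 1.4.6-p1) and mm10 are named in the submitters' processing notes, but no strand or multi-mapping setting was found in the sources used. Exon lengths are those of the deposited table, per the file headers. Its 93 spike-in and phiX entries were left out. Groups followed the labels. Nothing says that splenic replicates came from separate animals, so the p-values cover the spread among these libraries, which may be technical. Pairs of libraries in a group differed beyond sampling noise (chi-square per degree of freedom 44.1 to 161).

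Tests used edgeR 4.0.16 in R 4.3.3 (TMM, filterByExpr with a minimum count of 10 and a total of 15, quasi-likelihood F test, adjusted over all genes tested). The SE is the log2 fold change divided by the square root of F. SAHA and KOKI LPS comparisons came from 1 fit of 6 splenic libraries, femoral KOKI from 4 femoral libraries, and femoral control against WT LPS from all 10. CPM were computed from the counts with TMM library sizes over 10 libraries, marker genes and sums, Rag2, Il2rg and Xist with plain totals. The prior count for log2 CPM profiles was 2. A count of 0 was taken to allow 3 counts over a group, for counting error only. Motifs were searched as spelled out in RefSeq start-site windows, and the fits were tested on simulated data. DESeq2 1.42.0, RLE factors, no filter, other sets of libraries and leaving out each library were tried. Genes outside the family were named by a rule: per list and comparison, up to 3 called genes of largest rise and fall, or the 2 of highest mean level, not all of which are printed; Irf9 and Slfn14 are given beside them, chosen after their values were seen. An item of the interferon signalling list is not reported here. Members and lists were chosen with earlier results of these data known.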

Additional observations from a re-analysis of the deposited data

Results flagged for a closer look

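Slfn9 differed between KOKI and control libraries in opposite directions in spleen and femur. Both KOKI LPS cultures lay above both WT LPS cultures (log2 1.31), and both femoral KOKI pools lay below both femoral controls (log2 −0.84). The difference between these effects was not tested, because the splenic one belongs to the contrast on which the family was picked. Groups of 2 allow no test for single libraries that stand apart.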

How the results depend on the processing

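Over all genes, the SAHA comparison gave 712 calls and went to 1721 with DESeq2, 1970 without the low-count filter, 3413 with the WT number as a replicate block, 0 in the 4 compared libraries alone, 211 with all 10 libraries, and 0 to 290 when 1 library was left out. The number of Schlafen members called was 0 in each of these, the block included. The titles number WT cultures 1 and 2 with and without SAHA but do not say that a number marks 1 animal, and deviations of same-numbered cultures correlated at 0.362 over genes. KOKI LPS against WT LPS gave 626 calls, 1097 with DESeq2, 1254 without the filter and 270 to 332 with 1 library left out. The femoral KOKI comparison gave 5 calls, 688 (2 members) with DESeq2, 662 (2 members) without the filter, 0 with RLE factors, 0 with all 10 libraries, 0 and 1 for the KOKI pools deficient for both proteins and for RAG2 alone in that fit, the latter 2 chosen after seeing the data, and 13 to 3456 (0 to 4 members) with 1 library left out. Femoral control against WT LPS kept 6094 to 8712 calls and 5 or 6 members, Slfn4 counted among them although it passed the filter only through the femoral libraries. Signs turned for small differences. With SAHA, leaving out 1 library gave log2 −0.54 to 0.35 for Slfn1 (positive without WT LPS replicate 1), −0.023 to 0.18 for Slfn8 (negative without WT LPS+SAHA replicate 1) and −0.27 to 0.039 for Slfn9 (0.039 without WT LPS+SAHA replicate 1, 0.03 without WT LPS replicate 2). In KOKI LPS it gave −0.81 to 0.10 for Slfn3 (positive without KOKI LPS replicate 1). For femoral control against WT LPS, Slfn8 was 0.12 with DESeq2 and with RLE factors and −0.21 to 0.22 with 1 library left out (0.22 without femoral control replicate 1, 0.10 without WT LPS replicate 1). The cause was not tested. Slfn5, Slfn8 and Slfn9 kept their direction in KOKI LPS under all 8 alternatives (−3.55 to −3.11, −2.66 to −2.45 and 1.17 to 1.46), and all 7 members kept theirs in the femoral KOKI comparison under all 10. Depth limits Slfn1 and Slfn4 in spleen cultures.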
